A study of Caenorhabditis elegans with 2 samples.

Results

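The 9 genes described here encode regulators of the molting cycle of Caenorhabditis elegans: nhr-23, nhr-25, nhr-85, blmp-1, grh-1, bed-3, myrf-1, lin-29 and lin-42. They were selected by name from the 19973 protein-coding genes of Ensembl WBcel235, by a rule that uses no signal value, though earlier results of these data were known. The data are a ChIP-seq map of ELT-3, a GATA zinc finger factor of the epidermis, in whole L1 larvae of strain OP75 (unc-119(ed3) III; wgIs75), with both sexes pooled. The strain carries a transgene for ELT-3 with a GFP-FLAG tag at its C terminus, and both samples share this genotype, stage and tag. The data form 1 group of 2 biological replicates with no second condition, and the control library named in the labels is not analysed here. Whole animals were used, so the cells in which a site was bound cannot be told apart.

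A nematode larva sheds its cuticle at the end of each larval stage, and its epidermis transcribes cuticle and protease genes in waves that return with every molt. NHR-23, an orthologue of mammalian ROR receptors, and NHR-25, an orthologue of SF-1 and LRH-1, are nuclear receptors needed for molting. BLMP-1 (a zinc finger protein related to mammalian BLIMP1), GRH-1 (Grainyhead), MYRF-1 (a factor cleaved from a membrane anchor) and BED-3 (a BED zinc finger protein) also act in the cycle, and NHR-85, LIN-42 (a Period homologue) and LIN-29 (a zinc finger factor of the larva-to-adult switch) tie it to developmental timing.

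ELT-3 regions at these genes were graded. The nhr-23 gene held the strongest, in an intron. Then came nhr-25, blmp-1 and grh-1 at intermediate signal, nhr-85 and lin-42 lower, and myrf-1, bed-3 and lin-29 lowest. These grades are those of the pooled replicates. In replicate 2, lin-42, bed-3 and myrf-1 did not separate, and nhr-85 stood barely above them under the distance limit that follows. A region was counted at a gene when its summit lay inside the gene or within 5 kb of it. In the authors' list of 30000 regions from the pooled replicates, which holds background as well as peaks, the 9 genes had 88 regions with signal values from 13.6 to 58.1. Signal is a score that the authors gave each region, on a scale not stated, and rank 1 is the largest in its list. The median over the 88 regions was 17.2, and over all pooled regions it was 16.9. By gene, the median of the strongest signal was 27.1 for the 9 regulators, 21.1 for all protein-coding genes and 22.5 for the 2799 genes at least as long as the shortest regulator (5444 bp).

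**Figure D1:**
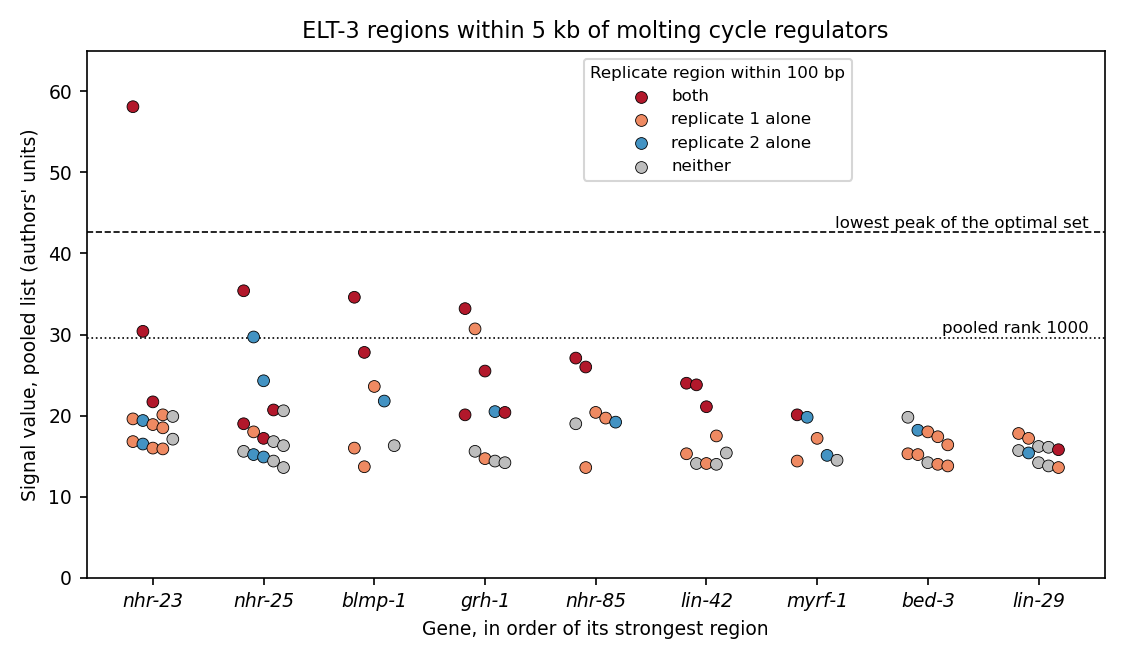
Signal value of each pooled ELT-3 region (points, 88 in all) within 5 kb of each of 9 genes, coloured by whether a replicate list holds a region with its summit within 100 bp. A single point, at nhr-23 (58.1), lies above the lowest peak of the optimal set (42.6), and 7 points at nhr-23, nhr-25, blmp-1 and grh-1 lie above the signal of pooled rank 1000 (29.6).

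Of the 9 genes, 1 (nhr-23) had a peak of the authors' optimal set of 253 within 5 kb, where 3.24% of all protein-coding genes had such a peak, and 3.68% of those at least as long as the shortest regulator. A pooled region of rank 1000 or better lay within 5 kb of 4 of the 9 (nhr-23, nhr-25, blmp-1 and grh-1), against 11.2% of all protein-coding genes and 15.9% of the long ones. Any pooled region at all lay within 5 kb of all 9 genes, a count with no contrast, since 96.4% of protein-coding genes had one. Read from replicate 2 alone, the counts were 0 genes with a region among the 253 strongest and 1 gene with a region of rank 1000 or better, and from replicate 1 alone 2 and 4. These counts are descriptions. With 2 replicates of 1 group no test between conditions exists, and the genes were named with earlier results of these data known.

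The optimal peak of nhr-23 was far higher in replicate 1 than in replicate 2. It spans 7217328 to 7217577 on chromosome I of ce11 (the same assembly as WBcel235), in an intron 2708 bp downstream of the 5′ end of the gene (WBGene00003622, plus strand, 7214745 to 7221299). Its signal was 58.1 in the pooled list (rank 66), 47.4 in replicate 1 (rank 13) and 13.6 in replicate 2 (rank 2237). Replicate 1 was thus 3.48-fold above replicate 2, a log2 ratio of replicate 2 to replicate 1 of -1.80. Of the 4508 pooled regions matched in both replicates, 2 had a ratio this low, itself included (0.0444%), and the median ratio was -0.02. Among the 253 strongest regions of replicate 2 none lay within 5 kb of any of the 9 genes.

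A second nhr-23 region, 2099 bp downstream of the 5′ end of the gene, was the more even of the pair. Its signal was 30.4 in the pooled list (rank 876), 13.4 in replicate 1 and 17.6 in replicate 2 (rank 653), the largest value of replicate 2 at any of the 9 genes. It lay in an untranslated exon, 60 bp downstream of the 5′ end of the transcript C01H6.5a.1, and the optimal peak lay 669 bp downstream of that same internal start. The gene has 6 annotated transcripts with 6 different 5′ ends. Neither region held a WGATAR site within 50 bp of its summit (the GATA factor sequence, where W stands for A or T and R for a purine), and the base content at the optimal peak was 62.4% G and C. The other 12 regions at nhr-23 had signal values of 15.9 to 21.7, and 4 of the 14 were inside the neighbouring genes C01H6.4 or C01H6.3 and 1 inside swsn-9.

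The other pair of nuclear receptor genes had regions on both sides of the gene or within it. At nhr-25 (WBGene00003623, chromosome X, 13008493 to 13013964, plus strand) the strongest region stood 6023 bp downstream of the 5′ end, beyond the 3′ end of the gene. Its signal was 35.4 in the pooled list (rank 464), 19.2 in replicate 1 and 15.1 in replicate 2, so it was present in both. The next, 486 bp upstream of the 5′ end, scored 29.7 in the pooled list (rank 979). It reached 15.9 in replicate 2 (rank 1079), and replicate 1 listed no region within 100 bp of it. This upstream region held 2 WGATAR sites within 50 bp of its summit and the downstream region none. A weaker region, in an intron 579 bp downstream of the 5′ end, held 1 site near its summit and had a signal of 20.7 in the pooled list, 12.1 in replicate 1 and 13.5 in replicate 2.

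These nhr-25 regions are shown because the downstream one is the strongest outside nhr-23 and the other pair carries GATA sites. The sequences are from the RefSeq genome, assembly WBcel235, plus strand, 5′ to 3′, and capitals mark WGATAR or its reverse complement.
nhr-25 downstream region, chrX:13014391-13014640, no site: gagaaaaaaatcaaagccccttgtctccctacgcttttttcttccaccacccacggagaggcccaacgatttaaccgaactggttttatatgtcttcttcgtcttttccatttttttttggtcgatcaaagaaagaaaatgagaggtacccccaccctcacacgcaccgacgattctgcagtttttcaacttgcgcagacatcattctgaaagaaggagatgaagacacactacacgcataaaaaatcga
nhr-25 upstream region, chrX:13007882-13008131, 2 sites: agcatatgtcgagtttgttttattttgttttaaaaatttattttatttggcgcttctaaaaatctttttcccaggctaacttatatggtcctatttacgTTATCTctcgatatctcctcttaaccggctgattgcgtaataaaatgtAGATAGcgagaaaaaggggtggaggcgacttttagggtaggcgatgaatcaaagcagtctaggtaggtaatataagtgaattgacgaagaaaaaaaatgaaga
nhr-25 intron summit window, chrX:13009022-13009122, 1 site: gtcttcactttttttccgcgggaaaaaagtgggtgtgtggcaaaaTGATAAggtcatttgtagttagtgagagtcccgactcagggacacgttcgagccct
In the upstream region the leftmost bases of the sites lie at -26 bp from the summit (minus strand) and 22 bp (plus strand), and in the intron window at -5 bp (plus strand).

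The nhr-25 locus was crowded. It had 15 pooled regions, or 9.69 per 10 kb of gene and flanks, the 10th highest density among the 19973 protein-coding genes, whose median was 2.92. It held 9 regions in replicate 1 (5.82 per 10 kb, place 1177) and 9 in replicate 2 (5.82 per 10 kb, where the median gene had 1.53). Of the 15, 6 had no region of either replicate within 100 bp, and the median signal of the 15 was 17.2, near that of the whole list. For all 15 the nearest protein-coding 5′ end was that of nhr-25 itself. The nhr-23 locus came next among the 9 genes at 8.46 per 10 kb (place 60), with 7.85 in replicate 1 (place 100) and 3.02 in replicate 2 (place 2434), and bed-3 followed at 6.48 (place 623). Together the 9 genes had 5.11 regions per 10 kb (95% Poisson interval 4.10 to 6.30, counting error only), against 2.99 over the genome. In replicate 1 alone it was 4.47 (genome 2.99) and in replicate 2 alone 2.50 (genome 1.56). Of the 88 regions 43 lay inside the 9 genes, at 5.23 per 10 kb, and 45 in the 5 kb to each side.

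**Figure D2:**
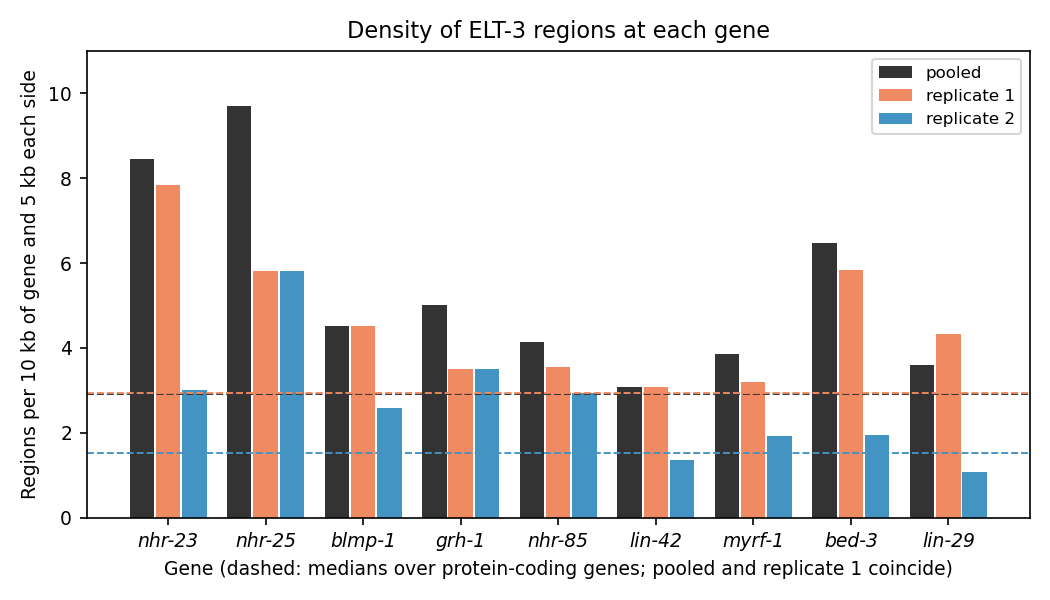
Regions per 10 kb (bars) in each gene and the 5 kb to each side, in the pooled, replicate 1 and replicate 2 lists, with the medians over 19973 protein-coding genes as dashed lines. In the pooled list nhr-25 (9.69) and nhr-23 (8.46) stand highest and lin-42 (3.09) lowest, and replicate 2, a list of 15646 regions, lies below the pooled list at every one of the 9 genes.

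At nhr-85 (WBGene00003675, chromosome I), the last of the receptor genes, both leading regions of the pooled list were in introns, 906 and 1653 bp downstream of the 5′ end. The first had a signal of 27.1 in the pooled list (rank 1531), 15.1 in replicate 1 and 12.4 in replicate 2, and held 1 WGATAR site. The second had 26.0 (rank 1949), 12.8 and 12.2, and held no site. Both were present in both replicates at similar values, and both ranked below the first 1000 pooled regions.

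The blmp-1 gene had the richest GATA cluster. Its strongest region spans 10409566 to 10409815 on chromosome I, in an intron 389 bp downstream of the 5′ end of the gene (WBGene00003847). The signal was 34.6 in the pooled list (rank 508), 24.2 in replicate 1 (rank 230) and 13.1 in replicate 2 (rank 2716), so replicate 1 was again the higher, by 1.84-fold. With 4 WGATAR sites within 50 bp of the summit it belongs to the 0.120% of pooled regions (36 of 30000) with 4 or more. A region 150 bp upstream of the 5′ end had 27.8 in the pooled list (rank 1362), 11.4 in replicate 1 and 14.1 in replicate 2, with 1 site. Another, 3983 bp upstream, had 3 sites, a signal of 21.8, and 15.3 in replicate 2 (rank 1257), with no matching region in replicate 1. Thus 3 of the 7 blmp-1 regions held a site, where 21.6% of all pooled summits did. Those 3 lay on either side of the start of the gene or far upstream of it, none in its 3′ part, a description of few regions.

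At grh-1 the strong regions lay nearer to another gene. The strongest, at -3103 bp (upstream) from the 5′ end of grh-1 (WBGene00001707, chromosome I, minus strand), had a signal of 33.2 in the pooled list (rank 614), 18.4 in replicate 1 and 14.2 in replicate 2. Its summit was 258 bp from the 5′ end of Y48G8AR.8. The second, at 30.7 (rank 845) and 20.9 in replicate 1 with no match in replicate 2, lay inside Y48G8AR.8. These regions count for grh-1 by distance alone. With the count limited to regions whose nearest 5′ end was that of the regulator itself, a limit added after the data were seen, 3 of 9 genes had a region of rank 1000 or better. The share of all protein-coding genes under this limit was not computed, and the shares given without it do not apply. The region nearest the start of grh-1, 118 bp downstream of its 5′ end, had 20.4 in the pooled list, 8.61 in replicate 1 and 11.8 in replicate 2. None of the 10 grh-1 regions held a WGATAR site near the summit.

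At bed-3, myrf-1 and lin-29 no region ranked above 7184 in the pooled list, whose median signal was 16.9. The strongest at bed-3 (WBGene00009133, chromosome IV) had a signal of 19.8, lay inside the next gene, dur-1, and was matched in neither replicate. At myrf-1 (WBGene00004134, chromosome II) the strongest had 20.1 in the pooled list, 8.97 in replicate 1 and 12.2 in replicate 2, in an intron 1532 bp from the 5′ end. At lin-29 (WBGene00003015, chromosome II), a gene of 17702 bp, the strongest of 10 regions had 17.8 (rank 12289) and 11.9 in replicate 1, with no match in replicate 2. By strongest signal lin-29 held place 15283 among the 19973 genes, bed-3 place 12057 and myrf-1 place 11545.

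The lin-42 gene (WBGene00018572, chromosome II, 19124 bp) had its 3 strongest regions of the pooled list in or past its 3′ part. None of them gave the largest signal of replicate 1 within 5 kb, which was 16.9 (rank 1593). The strongest had 24.0 in the pooled list (rank 2901), 10.6 in replicate 1 and 12.4 in replicate 2, and lay 24071 bp downstream of the gene's 5′ end inside F53A10.2. The second had 23.8 (rank 3072), 8.76 in replicate 1 and 10.2 in replicate 2. It lay in an untranslated exon, 195 bp downstream of the 5′ end of the transcript F47F6.1a.1, and another (21.1, rank 5731) lay at -83 bp from that of F47F6.1g.1. Both are internal starts of lin-42, which has 7 annotated transcripts. Regions matched in both replicates made up 3 of its 9, and these were the 3 strongest.

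Summit windows of these weaker loci are shown for contrast with nhr-25: the strongest region of each gene, and the bed-3 region with most sites. They are from the same assembly and plus strand, and capitals again mark WGATAR on either strand.
lin-42, chrII:1228238-1228338, no site: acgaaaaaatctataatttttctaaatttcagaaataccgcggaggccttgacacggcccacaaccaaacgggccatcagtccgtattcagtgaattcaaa
myrf-1, chrII:10500959-10501059, no site: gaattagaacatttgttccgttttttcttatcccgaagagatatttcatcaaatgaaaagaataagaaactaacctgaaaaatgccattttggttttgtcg
lin-29, chrII:11932830-11932930, 1 site: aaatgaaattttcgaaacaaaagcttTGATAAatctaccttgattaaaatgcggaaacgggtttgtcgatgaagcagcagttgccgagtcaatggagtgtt
bed-3 strongest, chrIV:9924281-9924381, no site: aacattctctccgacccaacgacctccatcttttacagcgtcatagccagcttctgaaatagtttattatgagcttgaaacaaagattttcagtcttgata
bed-3 upstream, chrIV:9914343-9914443, 2 sites: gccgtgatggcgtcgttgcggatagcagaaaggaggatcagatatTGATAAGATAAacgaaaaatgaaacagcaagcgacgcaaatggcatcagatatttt
The bed-3 upstream window holds 2 overlapping sites at the summit itself, 2131 bp upstream of the gene, yet its region had a signal of 15.2 in the pooled list (rank 21242) and 10.9 in replicate 1, with no match in replicate 2. The strongest regions of lin-42, myrf-1 and bed-3 had larger signals and no site, and that of lin-29 (17.8) had a larger signal and 1 site. Over the 88 regions the median signal was 19.6 with a site and 17.1 without.

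**Figure D3:**
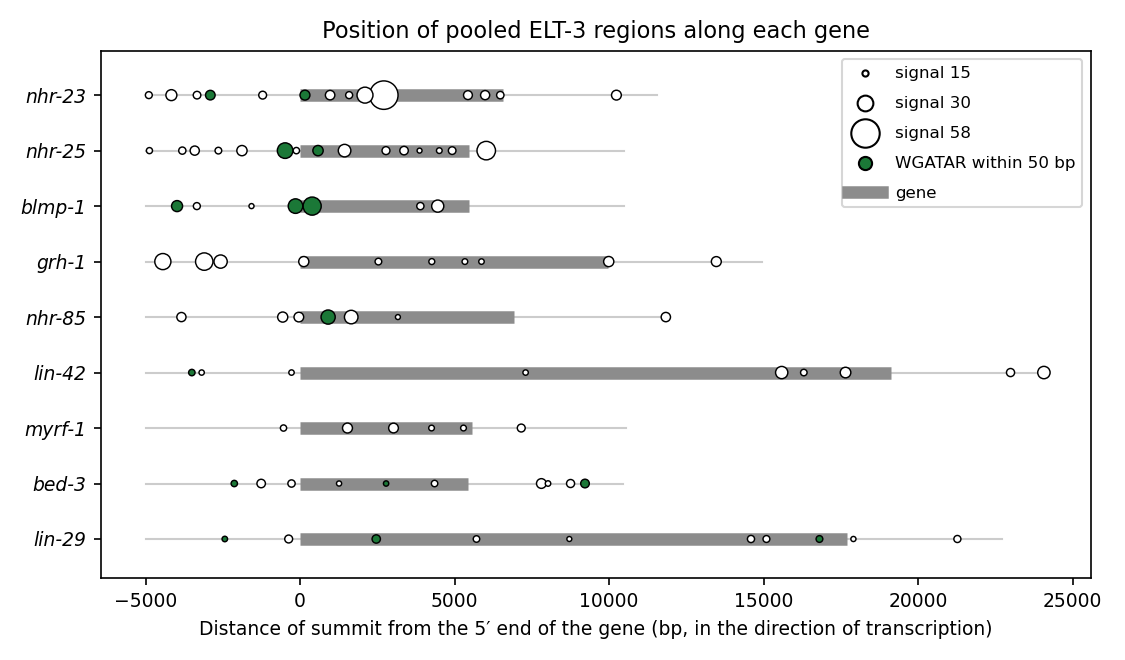
Summit position of each pooled region relative to the 5′ end of its gene (bp, transcription to the right), with the gene as a thick bar, 5 kb flanks as a thin line, circle area growing with signal and green fill for a WGATAR site within 50 bp. The largest circle is the nhr-23 intron peak (58.1, no site), sites sit around the starts of blmp-1 and nhr-25, and grh-1 and myrf-1 show no green circle.

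All 9 genes had a pooled region from 1000 bp upstream to 200 bp downstream of their 5′ end, where 35.5% of protein-coding genes had one. The 11 regions there had signal values of 14.1 to 29.7 with a median of 19.7, against 16.9 over the list, and the strongest was the nhr-25 upstream region of rank 979. Of the 11, 2 (at blmp-1 and grh-1) were matched in both replicates, 8 in 1 replicate and 1 (at lin-42) in neither. Taken from the replicate lists alone, 7 of 9 genes had such a region in replicate 1 (33.7% of protein-coding genes) and 4 of 9 in replicate 2 (22.0%). When the 5′ end of any annotated transcript of the gene was allowed, 18 of the 88 regions lay in such a window. No share over all regions was computed for this rule, which gives more room to genes with several starts (nhr-23 has 6, lin-42 has 5).

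By feature of any protein-coding gene, the share in untranslated exons stood farthest, as a ratio, from that of the whole list. Between protein-coding genes lay 28 (31.8%, against 34.2% of all pooled regions) and in introns 26 (29.5% against 27.1%). Noncoding genes were not considered, and the strongest nhr-25 region, among the 28, lay at or close to one. In coding exons lay 24 (27.3% against 33.9%) and in untranslated exons 10 (11.4% against 4.74%). The nhr-23 window gave more of these 10 than any other. Those in C01H6.4, C01H6.3, Y48G8AL.15 and herc-1 were exons of neighbours, not of the regulators. The nearest protein-coding 5′ end was that of the regulator for 59 regions and of another gene for 29, a split with no background computed. For the strongest region of each gene, the nearest 5′ end was that of the regulator for 7 of 9, all but grh-1 and bed-3. Of protein-coding genes with a region, 33.9% had their strongest region nearest to their own 5′ end. The 7 include lin-42, whose strongest region lay 24071 bp from its 5′ end, inside F53A10.2. Counting the 5′ ends of every transcript gave 6 of 9, with no share over all genes computed. By gene 5′ ends, replicate 1 alone gave 4 of 9 and replicate 2 alone 7 of 9. The regulators were longer genes (median 6555 bp against 2027 bp over protein-coding genes), and the part of length in this count was not tested.

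Replicate support followed the signal. Of the 10 regions of pooled rank 2000 or better, 8 had a region within 100 bp in both replicates (95% exact binomial interval 44.4% to 97.5%), and of the other 78, 12 did (15.4%, 8.21 to 25.3). Over all pooled regions the shares were 76.6% and 10.6%. In all, 20 of the 88 were matched in both replicates (22.7%, 14.5 to 32.9, where 4508 of all 30000 were). Another 31 were matched in replicate 1 alone (35.2% against 43.2% of all pooled regions) and 13 in replicate 2 alone (14.8% against 19.8%). The last 24 were matched in neither (27.3% against 22.0%). The pooled list was made from these replicates, so a match is no independent evidence. Over the 20 matched regions the log2 ratio of replicate 2 to replicate 1 ranged from -1.80 to 0.45, with a median of -0.12 and an SD of 0.52.

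The genes kept a similar order when each replicate was read on its own. In replicate 1 the largest signal within 5 kb was 47.4 at nhr-23, 24.2 at blmp-1, 20.9 at grh-1 and 19.4 at nhr-25, followed by nhr-85. Below these came lin-42 at 16.9, lin-29 at 13.0, bed-3 at 12.8 and myrf-1 at 10.1. In replicate 2 it was 17.6 at nhr-23, 15.9 at nhr-25, 15.3 at blmp-1, 14.2 at grh-1 and 12.7 at nhr-85, and from 10.8 to 12.5 at the other 4 genes. The first 5 genes were thus the same in both, while nhr-25, blmp-1 and grh-1 changed places among themselves and cannot be ordered beyond the spread between replicates. In replicate 2, nhr-85 stood barely above bed-3 (12.5), lin-42 (12.4) and myrf-1 (12.2), so these lower grades did not separate there under the 5 kb limit. For nhr-85 this hung on the limit. A replicate 2 region of 14.3 (rank 1728), matched to a pooled nhr-85 region, had its summit just past 5 kb and was not counted. Spearman's rho over the 9 genes was 0.87, and over the 16529 protein-coding genes with a region in both lists it was 0.30. These are descriptions over genes, which share the libraries and the control. At nhr-23, nhr-25, blmp-1, grh-1, lin-42, myrf-1 and lin-29 the strongest region was a different one in each list. The order and rho thus compare loci, not the same sites. In replicate 1, 4 of the 9 genes had a region of rank 1000 or better (11.8% of protein-coding genes), and in replicate 2, 1 did, nhr-23 (11.7%).

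**Figure D4:**
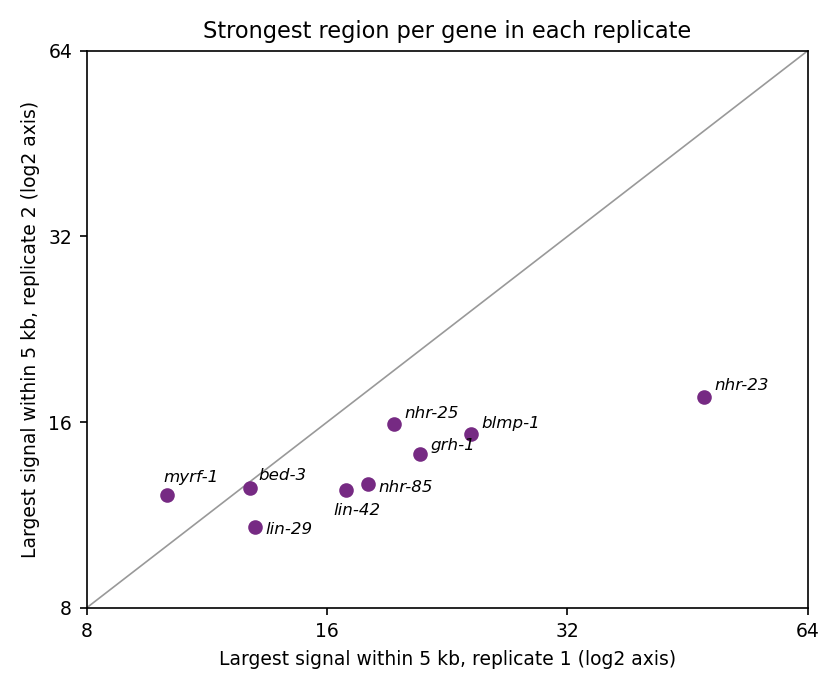
Largest signal within 5 kb of each gene in replicate 1 (x) and replicate 2 (y), both on log2 axes, with the line of equal values in grey. The nhr-23 gene is highest in both (47.4 and 17.6, from different regions) and farthest from the line, and lin-42, myrf-1, bed-3 and lin-29 lie lowest in replicate 2.

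The share of these regions with a GATA site was 17.0%, and the share over the whole list lay inside its interval. A WGATAR site was found near 15 of the 88 summits (95% exact binomial 9.87% to 26.6%) and in 26 of 176 windows centred 500 bp to either side (14.8%, 9.88 to 20.9). Over all pooled regions the shares were 21.6% at summits and 20.6% in such flanks. Among the 10 regions of rank 2000 or better, 4 held a site (12.2% to 73.8%), namely those of nhr-25 upstream, nhr-85 and blmp-1, the last with 2 such regions. The share over all pooled regions of that rank was 33.9%. Past rank 2000 it was 14.1% at the 9 genes (11 of 78) and 20.7% over the list. Of the 7 regions of rank 1000 or better, 2 held a site, and the optimal peak of nhr-23 did not. No share over all regions of that rank was computed. The G and C content of the summit windows was 40.3% ± 9.8 (SD, n = 88), of their flanks 36.1% ± 6.2, and of all pooled summit windows 39.2% ± 8.1. Regions of 1 gene share a locus and are not independent, and the intervals cover counting error only.

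**Figure D5:**
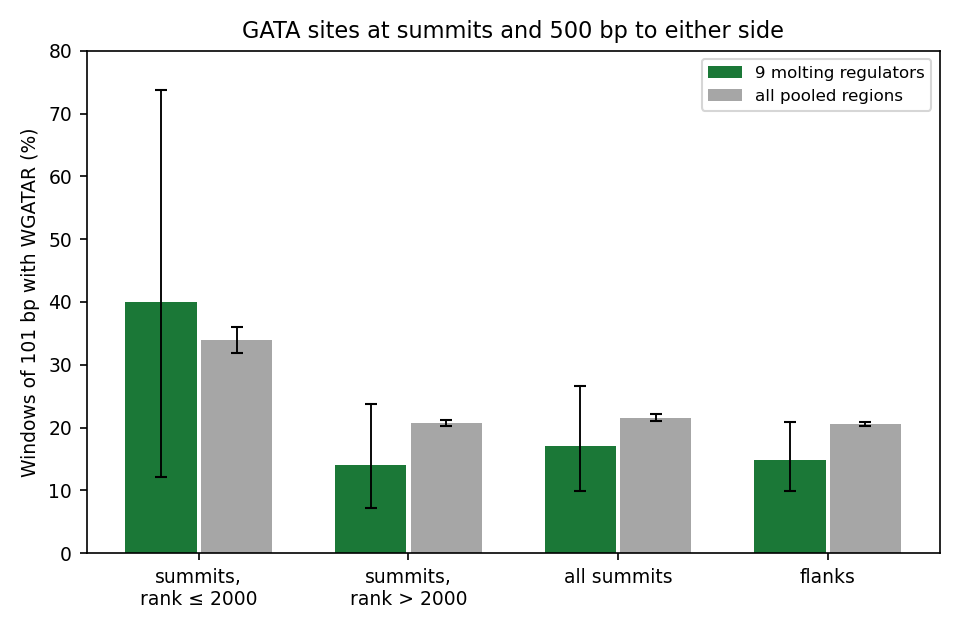
Share of windows reaching 50 bp to each side that hold WGATAR (%), at summits of rank 2000 or better, past rank 2000, at all summits and in flanks, for the regions at 9 molting regulators (green) and all pooled regions (grey), with 95% exact binomial intervals. The green and grey intervals overlap in each pair, and the green value in the first pair rests on 10 regions.

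Other genes of the same processes were read against the same backgrounds, from lists written with earlier results known. Of 20 further regulators of timing and molting, 1 had an optimal peak within 5 kb (3.24% of protein-coding genes) and 3 a pooled region of rank 1000 or better (11.2%, and 15.9% of the long genes), counts near these backgrounds. The optimal peak was that at lin-41, which encodes an RNA-binding TRIM-NHL protein of the timing pathway, 9863 bp downstream of its 5′ end and past the gene, where the nearest 5′ end was that of cbl-1 at 4776 bp. It scored 70.5 (rank 25) in the pooled list, 34.0 in replicate 1 and 34.1 in replicate 2. Unlike that of nhr-23 it was even between the replicates, and it held 3 WGATAR sites. The others were kin-20 (30.8, rank 837, in an intron), a casein kinase that acts with LIN-42, and mlt-2 (34.3, rank 527), where the nearest 5′ end was that of col-61. Of 24 molting effector genes none had an optimal peak, and 4 had a region of rank 1000 or better, again near the share over all genes: lrp-1 (35.3), a megalin-like endocytic receptor, qua-1 (33.2), a hedgehog-related protein, mlt-7 (31.7), a peroxidase, and dab-1 (31.3), an endocytic adaptor. The mlt-7 region had no match in replicate 1 and the dab-1 region none in replicate 2. For lrp-1 and qua-1 the nearest 5′ end was that of capg-1 and col-76. The median strongest signal was 24.2 for the regulators and 22.9 for the effectors.

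The limit of 5 kb fell between a lin-42 region 4948 bp from the gene (signal 24.0, the strongest of lin-42) and an nhr-85 region 5017 bp away (13.7). From 5 to 10 kb lay 32 further regions, 1 of them of rank 1000 or better, at grh-1 (34.1, rank 541, 5867 bp from the gene).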

How the data were processed

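ELT-3 ChIP-seq regions of 2 biological replicates, 1 group by the labels, were analysed. Per the deposited notes, each replicate list was derived from that replicate's alignments with a control, the pooled list from both replicates, and the optimal set from these lists. The signal value is the authors' score per region, of unstated scale. The sources used here do not give the aligner, peak caller, IDR threshold or read depth, so precision is expressed through numbers of regions. Lists in ce10 were not used.

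Summits were taken as the files give them, 1-based, and set against Ensembl release 115 gene models. Region width was 260 bp in replicate 1 and 250 bp in the pooled list. Summits within 100 bp were matched between lists. WGATAR was sought on both strands within 50 bp. Intervals are exact binomial or Poisson, at 95%. Functions were checked on simulated data. No test was run, and no multiple-testing adjustment applies. Python 3.11.15, pandas 2.3.3 and scipy 1.17.1 were used.

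The genes and lists were chosen with earlier results of these data known. Of 22 names in the regulator list, 20 were found as protein-coding genes. Described singly were the 9 genes, their regions of pooled rank 1000 or better and strongest regions, the genes nearest to these, and list genes reaching rank 1000. Further regions are described singly for their site, position or rank, as chosen after their values were seen.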

Additional observations from a re-analysis of the deposited data

How the results depend on the processing

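Of 35 other settings over 7 results, 25 stayed close to the main value, as did 3 more added after the data were seen. Close meant within 1.5 times a count, inside the interval of a share or density, or within the SD of the log2 ratio. The nhr-23 peak was the single optimal peak at every distance tried, inside the gene to 10 kb. Genes with a pooled region of rank 1000 or better numbered 2 when regions had to lie inside the gene and 2 at rank 500, against 4. The share of regions with a GATA site was 34.1% within 100 bp and 7.95% for the word GATAAG, against 17.0%. The share matched in both replicates was 34.1% at 250 bp, against 22.7%. A wider window or looser match gives a larger share by construction.

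With a single replicate's list in place of the pooled or optimal list, genes with a peak among the 253 strongest numbered from 0 (replicate 2 alone) to 2 (replicate 1 alone, nhr-23 and blmp-1). Genes with a region of rank 1000 or better numbered from 1 (replicate 2 alone) to 4. Density ranged from 2.50 (replicate 2, the shorter list) to 4.47 per 10 kb, and the GATA share from 16.9% to 20.9%. Genes whose strongest region lay nearest to their own 5′ end numbered from 4 (replicate 1 alone) to 7. No paired analysis was possible because the data form 1 group. Depth is not known, so weak regions cannot be told from background.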
